A study of Saccharomyces cerevisiae with 11 samples.

Results

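The 9 genes described here encode enzymes of the yeast vacuole and the small proteins that inhibit them. They are 6 vacuolar peptidases (PEP4, PRB1, PRC1, CPS1, APE3 and DAP2), 2 cytosolic inhibitors of such peptidases (PAI3 and PBI2) and 1 vacuolar mannosidase (AMS1). They were taken by name from the annotation of the array. Each had a single probe set annotated to it alone, and all 9 lay above the signal floor of 12 on every array, out of 5577 genes that could be tested.

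The arrays came from a rim15 deletion strain of Saccharomyces cerevisiae, derived from the prototrophic laboratory strain CEN.PK113-7D and grown without oxygen under glucose limitation. The deleted gene codes for a kinase that relays nutrient signals when yeast enters quiescence, and every group lacked it. A chemostat at a dilution rate of 0.025 per h gave the starting point (3 independent cultures). Retentostats, in which a filter holds the cells back while medium flows through at the same rate, were sampled on days 2, 9, 16 and 20 (2 vessels, named culture 1 and culture 2, followed through all 4 days). The series examines what the loss of RIM15 does under severe calorie restriction, but the parental strain was not analysed here, so each comparison follows the mutant over time.

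The vacuole is the main degradative compartment of yeast, where proteins and organelles delivered by endocytosis and autophagy are broken down. Proteinase A, the product of PEP4, activates itself and sets off a cascade in which proteinase B (PRB1), carboxypeptidase Y (PRC1) and other precursors are cut into their mature forms. Transcript levels do not show this activation, which acts on the proteins. Vacuolar hydrolases are textbook markers of cells that run short of carbon or nitrogen.

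Signals are linear probe-set intensities scaled by the authors to the same trimmed mean on each array, and differences are on the log2 scale. The median signal of an array ran from 85.3 to 122, and between 15.8% and 22.9% of its probe sets lay at or under the floor. RIM15 gave signals from 0.4 to 13.9 and lay at or under the floor on 10 of 11 arrays; the position of its probe set relative to the deleted part was not known here. On the culture 2 arrays of days 9, 16 and 20, the control probe sets for ACT1 gave 27.0, 217 and 31.8 times as much signal at the 3' end as at the 5' end, against 0.966 to 2.03 on the other 8 arrays. Results that rest on these 3 arrays are given with and without them. Without them, each late day has 1 array, whose spread is borrowed from the groups with several arrays. In bulk cultures, fewer cells with a transcript and less of it per cell cannot be told apart.

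Over the 5 sampling points only DAP2 passed the moderated F test (limma adjusted p = 0.0495), which is 1 of the 9 genes, where 11.4% of all genes tested passed. The other 8 had adjusted p-values from 0.194 for PEP4 to 0.860 for PBI2, and none of them had an unadjusted p under 0.05. Leaving out the 3 arrays of high ACT1 ratio ended the DAP2 call (adjusted p = 0.141), so that 0 of the 9 genes passed against 3.14% of all genes. It also ended under quantile scaling (adjusted p = 0.114), under median scaling (adjusted p = 0.226) and when any 1 of 9 arrays was left out (adjusted p up to 0.170), the exceptions being culture 2 of day 2 and culture 1 of day 16. With the difference between the retentostat cultures as a fixed term, 2 genes passed, DAP2 (adjusted p = 0.0240) and CPS1 (adjusted p = 0.0234), against 26.9% of all genes. The 9 genes were thus called about as often as genes in general.

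PEP4 (YPL154C) encodes proteinase A, the aspartyl protease at the head of the activation cascade. Its signal was 3036, 3063 and 2822 in the chemostat, 2556 and 2737 on day 2, 1867 and 1877 on day 9, 2185 and 1112 on day 16, and 2436 and 1982 on day 20 (culture 1 first). All 8 retentostat arrays lay below all 3 chemostat arrays, and the lowest was the day 16 array of culture 2. The share of all genes that separated from the chemostat in such a way was not counted, for PEP4 or for the genes below.

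Against the chemostat mean of 2974 ± 132 (SD, n = 3), PEP4 fell on day 16 to 1648 ± 759 (SD, n = 2). This was -0.93 ± 0.29 on the log2 scale (SE, limma adjusted p = 0.0464). The differences on days 2, 9 and 20 were -0.17, -0.67 and -0.44, with limma adjusted p-values of 0.956, 0.147 and 0.317. That of day 9 passed when either day 16 array was left out. For day 9 these refits are the same test, since the day 16 array that remains adds nothing to the spread. The day 16 call did not hold in culture 1 alone, with the 3 high-ratio arrays left out, where the difference was -0.44 (adjusted p = 0.106). Its direction was the same under all settings tried. The call was also lost under quantile scaling (-0.76, adjusted p = 0.104) and with only the compared groups in the fit. It was lost too when any 1 chemostat, day 2 or day 20 array or the culture 2 array of day 16 was left out.

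**Figure D1:**
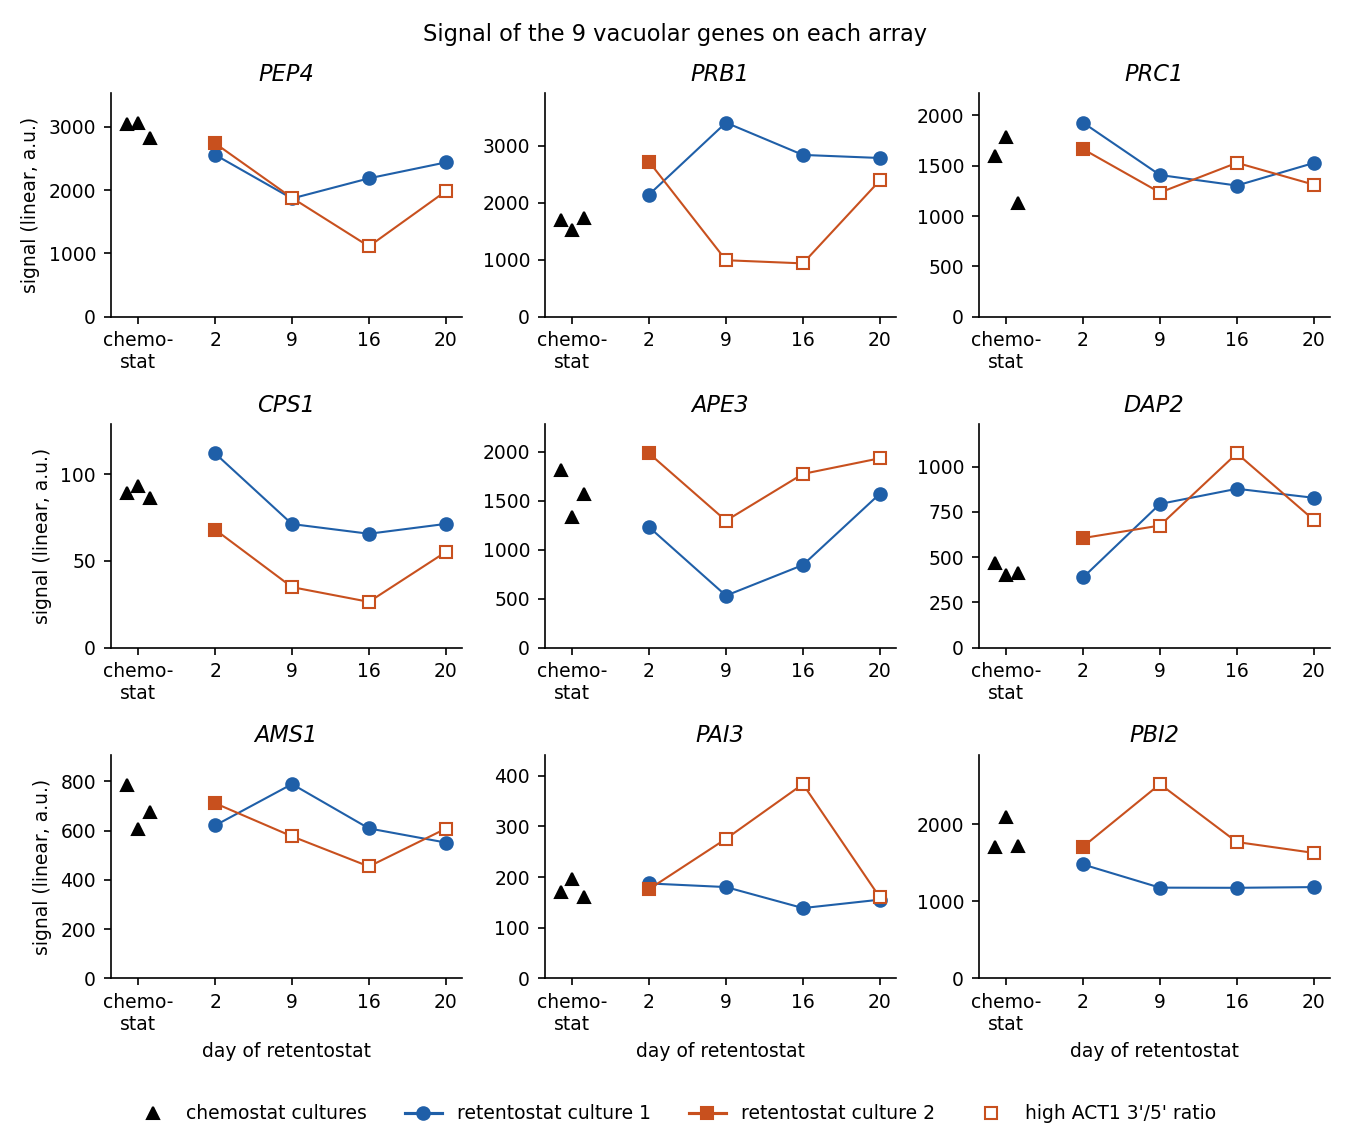
Probe-set signal (linear, arbitrary units) of each of the 9 genes on every array, by sampling point; triangles are the 3 chemostat cultures, circles and squares retentostat cultures 1 and 2, and open squares the 3 arrays of high ACT1 ratio. PEP4 lies below the chemostat on all 8 retentostat arrays and DAP2 above it on all 6 arrays from day 9 on. The share of all genes that do so was not counted. PRB1, CPS1, APE3, PAI3 and PBI2 differ between the cultures by at least 0.59 on the log2 scale on days 9 and 16.

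PRB1 (YEL060C) encodes proteinase B, the subtilisin-like serine protease that PEP4 activates and that matures other hydrolases. Its signal was 1700, 1522 and 1728 in the chemostat and 2144 and 2721 on day 2. In culture 1 it was then 3406, 2840 and 2786 on days 9, 16 and 20, and in culture 2 it was 993.6, 938.1 and 2392. All 5 retentostat arrays of ordinary ACT1 ratio lay above the chemostat arrays, and of the 3 arrays of high ratio 2 lay below and 1 above. The share of all genes with such a pattern was not counted.

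No day passed the test for PRB1 with all arrays. Relative to the chemostat it stood at 0.55 ± 0.54 (SE, log2) on day 2, and at 0.16, -0.01 and 0.65 on the later days, with limma adjusted p-values of 0.869, 0.884, 0.991 and 0.435. The 95% interval on day 20 ran from -0.57 to 1.86. Without the 3 arrays, days 9 and 16 rested on 1 array each, from culture 1. PRB1 then stood at 1.05 and 0.79 on the log2 scale, whereas its culture 2 arrays of these days stood at -0.73 and -0.81. With only the day 20 and chemostat arrays in the fit the day 20 difference passed (limma adjusted p = 0.0272). Far more of all genes passed on day 20 in that fit than in the main fit. It also leaves out the day 9 and day 16 arrays, where PRB1 had log2 SDs of 1.26 and 1.13.

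PRC1 (YMR297W), which encodes carboxypeptidase Y, a serine carboxypeptidase widely used to follow vacuolar sorting, stayed between 1126 and 1927. Its lowest signal was chemostat array 3 and its highest the day 2 array of culture 1, so the chemostat and late retentostat arrays overlapped. The log2 differences from the chemostat ran from -0.16 on day 9 to 0.28 on day 2, with limma adjusted p-values from 0.714 to 0.899. On day 20 the 95% interval ran from -0.63 to 0.51.

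CPS1 (YJL172W) encodes carboxypeptidase S, a zinc carboxypeptidase that reaches the vacuole through multivesicular bodies. It was dim, with signals of 89.3, 93.5 and 86.2 in the chemostat and 112.1 and 68.1 on day 2. Culture 1 gave 71.3, 65.7 and 71.4 on days 9, 16 and 20, and culture 2 gave 34.9, 26.4 and 55.2. From day 9 on all 6 arrays lay below the chemostat, with culture 2 the lower on each day. The share of all genes that did so was not counted.

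On the log2 scale CPS1 differed by -0.85 ± 0.43 (SE), -1.11 and -0.51 on days 9, 16 and 20, and with limma adjusted p-values of 0.218, 0.0947 and 0.438 none passed. With the culture difference as a fixed term the day 9 and day 16 differences passed (adjusted p = 0.0268 and 0.00685). That fit describes these 2 cultures and takes their mean difference out of the spread. Culture 1 alone, without the 3 arrays, gave -0.33, -0.45 and -0.33, which did not pass either.

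APE3 (YBR286W) encodes aminopeptidase Y, a vacuolar aminopeptidase. The chemostat arrays read 1818, 1331 and 1569. Culture 1 gave 1232, 531.4, 844.5 and 1573 on days 2, 9, 16 and 20, and culture 2 gave 1986, 1298, 1776 and 1936. Culture 2 lay above culture 1 on every day, and the dip on day 9 appeared in both cultures. The log2 difference from the chemostat was -0.91 ± 0.44 (SE) on day 9 (limma adjusted p = 0.192) and 0.16 on day 20 (adjusted p = 0.829). On day 9 it passed with the culture term (adjusted p = 0.0284), and without the 3 arrays culture 1 alone gave -1.55 (adjusted p = 0.0477).

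DAP2 (YHR028C) encodes dipeptidyl aminopeptidase B, a membrane-bound serine protease of the vacuole. Its signal was 468.3, 401.1 and 411.4 in the chemostat, 387.2 and 604.9 on day 2, 793.2 and 674.1 on day 9, 877.0 and 1073 on day 16, and 827.2 and 704.8 on day 20 (culture 1 first). All 6 arrays from day 9 on lay above the chemostat arrays and above both day 2 arrays, including those of ordinary ACT1 ratio. How many of all genes did so was not counted.

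DAP2 rose on day 16 to 2.28 times the chemostat level, or by 1.19 ± 0.25 on the log2 scale (SE, limma adjusted p = 0.0126). The differences on days 2, 9 and 20 were 0.18, 0.78 and 0.84, and those of days 9 and 20 lay just outside the threshold (adjusted p = 0.0667 and 0.0548). Both passed with the culture term (limma adjusted p = 0.0410 and 0.0311). That of day 20 also passed when any 1 array of day 2 or day 16 was left out. For day 20, leaving out either array of the same day is the same test. The day 16 call was lost under median scaling (0.79, adjusted p = 0.0624), without the 3 arrays (1.04, adjusted p = 0.0801) and without the culture 2 array of day 16 alone (adjusted p = 0.0761). Between day 2 and day 20 DAP2 differed by 1.10 in culture 1 and 0.22 in culture 2, and this comparison did not pass (0.66 ± 0.28, adjusted p = 0.338).

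AMS1 (YGL156W) encodes vacuolar alpha-mannosidase, which is made in the cytosol and carried into the vacuole by the cytoplasm-to-vacuole targeting route. It ranged from 454.3 on the day 16 array of culture 2 to 789.0 on the day 9 array of culture 1, and its chemostat arrays read 786.4, 605.1 and 676.6. The groups overlapped on all 4 days. Its log2 difference lay between -0.38 on day 16 and -0.02 on day 9, with limma adjusted p-values of 0.284 and above. On day 20 the interval ran from -0.80 to 0.31.

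PAI3 (YMR174C) encodes the inhibitor of proteinase A and PBI2 (YNL015W) an inhibitor of proteinase B, which also acts in vacuole fusion. PAI3 gave 169.9, 195.4 and 161.1 in the chemostat, 187.3 and 176.1 on day 2, and 155.3 and 159.8 on day 20. Between these, culture 1 read 180.2 on day 9 and 138.7 on day 16, and culture 2 read 275.4 and 383.5. PAI3 therefore stood out of the chemostat range upwards only on 2 arrays, both of high ACT1 ratio.

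PBI2 read 1698, 2087 and 1722 in the chemostat. Culture 1 gave 1477, 1177, 1175 and 1184 on days 2, 9, 16 and 20, all below the chemostat arrays, and culture 2 gave 1708, 2520, 1768 and 1628. The share of all genes below the chemostat in culture 1 on every day was not counted. On day 16 the log2 difference was 0.40 ± 0.39 (SE, limma adjusted p = 0.487) for PAI3 and -0.34 ± 0.35 (SE, adjusted p = 0.506) for PBI2, and neither inhibitor passed on any other day. Without the 3 arrays the day 16 difference of PAI3 had the other sign, -0.33 (adjusted p = 0.240).

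**Figure D2:**
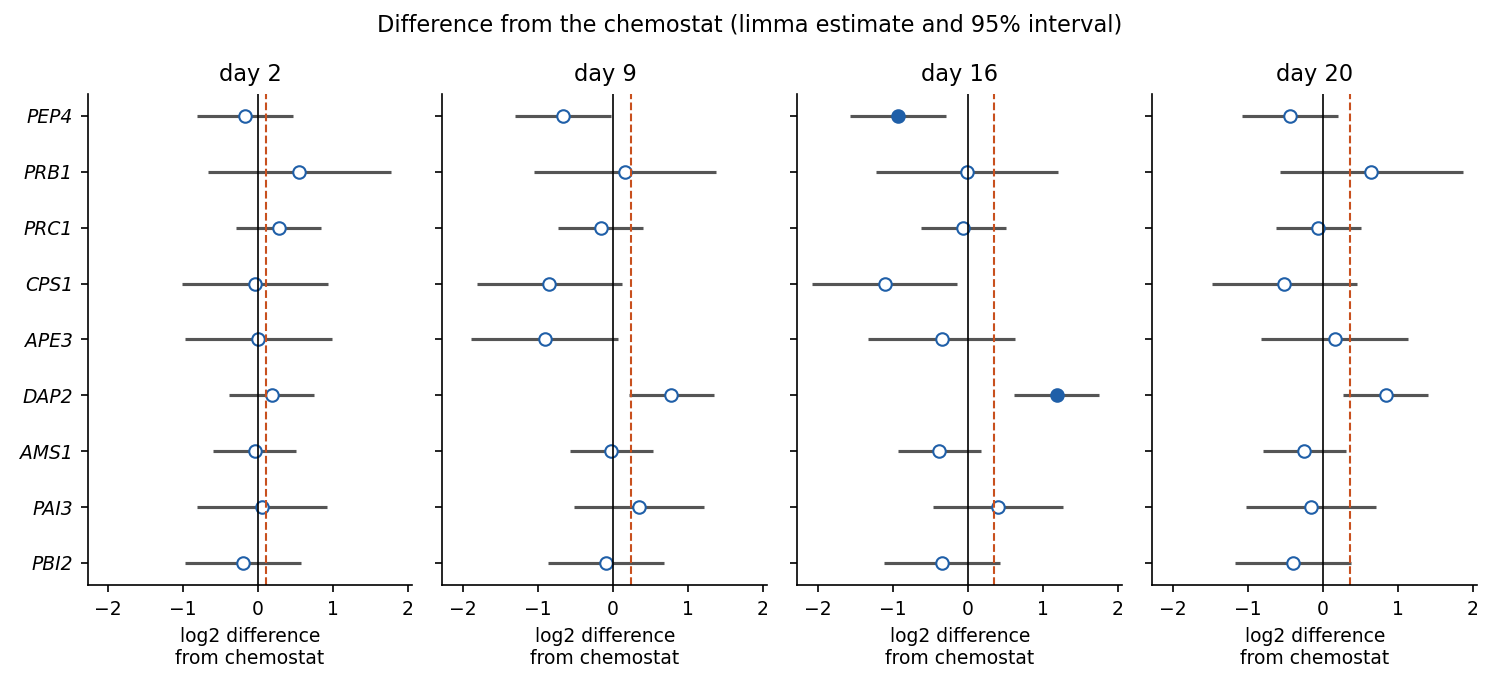
Log2 difference of each gene from the chemostat on each retentostat day; points are limma estimates, bars their 95% intervals, filled points passed an adjusted p of 0.05, and the dashed line is the median of all genes tested. PEP4 at -0.93 and DAP2 at 1.19 on day 16 are the filled points.

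By comparison with the chemostat, 0 of the 9 genes passed on day 2, where 0.0179% of all genes passed and none of the 9 had an unadjusted p under 0.05 (limma). On day 9 again 0 passed against 15.1% of all genes, and 2 had an unadjusted p under 0.05. On day 16 there were 2, against 20.9% of all genes, with 1 higher (16.6% of all genes) and 1 lower (4.32%). On day 20, 0 passed against 13.5% of all genes and 1 had an unadjusted p under 0.05. Between day 20 and day 2, 0 passed against 0.592% of all genes, again with 1 gene at an unadjusted p under 0.05.

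With the culture difference as a fixed term, 3 of the 9 genes passed on day 9 (CPS1, APE3 and DAP2, against 26.3% of all genes), 3 on day 16 (PEP4, DAP2 and CPS1, against 36.0%) and 1 on day 20 (DAP2, against 27.0%). Without the 3 arrays of high ACT1 ratio 3 passed on day 9 (PEP4, PRB1 and APE3, against 15.8%), 0 on day 16 (against 12.7%) and 0 on day 20 (against 5.40%).

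Under the authors' scaling most genes lay somewhat above the chemostat, and fewer of the 9 vacuolar genes did so from day 9 on, a difference for which no test was made. All of the 9 but CPS1 were brighter than the median probe set of every array (85.3 to 122). They were not set against genes of like signal, so the part of signal level in this difference was not tested. On day 2, 5 of the 9 lay above the chemostat, against 60.8% of all genes. On days 9 and 20, 3 of 9 lay above it, and 4 of 9 without the 3 arrays, against 64.0% and 71.1% of all genes with all arrays. On day 16 the median log2 difference of the 9 was -0.34, with 7 of 9 below 0, and that of all genes was 0.35, with 67.6% above 0. Without the 3 arrays the day 16 medians were -0.33 for the 9 genes and 0.28 for all. On day 20 the medians were -0.15 for the 9 genes and 0.36 for all genes. On day 2 they were 0.00 and 0.11. Quantile scaling gave 6 of 9 below 0 on day 16 and a median of -0.26, and median scaling 7 of 9 and -0.73. The medians of all genes were then 0.05 and -0.02, and the share of called genes that were higher on day 16 went from 79.3% to 54.9% and 44.1%. The comparisons with the chemostat share the same 3 chemostat arrays.

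The retentostat cultures differed in both directions on days 9 and 16, about as widely for the 9 genes as for genes in general. On day 9 the log2 signal of culture 2 minus that of culture 1 was -1.78 for PRB1 and -1.03 for CPS1, but 1.29 for APE3, 1.10 for PBI2 and 0.61 for PAI3. On day 16 it was -1.60 for PRB1, -1.32 for CPS1 and -0.97 for PEP4, but 1.47 for PAI3 and 1.07 for APE3. The middle 90% of all genes spanned -1.47 to 1.43 on day 9 and -1.78 to 1.46 on day 16, so 2 of the 18 values fell outside it, PRB1 on day 9 and, by a small margin, PAI3 on day 16.

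By day 20 none of the 9 genes differed between the cultures by more than 0.46 in either direction. The middle band of all genes had narrowed as well, to -0.78 to 0.65, so this was not particular to the 9 genes. The ACT1 ratio of culture 2 was 31.8 on that day. On day 2, with ratios of 1.49 and 1.94, the largest culture differences among the 9 genes were -0.72 for CPS1 and 0.69 for APE3. The band of all genes then ran from -0.84 to 0.94. The residual SD of PRB1 within groups was 0.70 on the log2 scale, larger than that of 90.6% of all genes. That of DAP2, PRC1 and AMS1 was 0.22 to 0.24, below the median of 0.37 for all genes. The part of the ACT1 ratio in these differences was not tested.

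**Figure D3:**
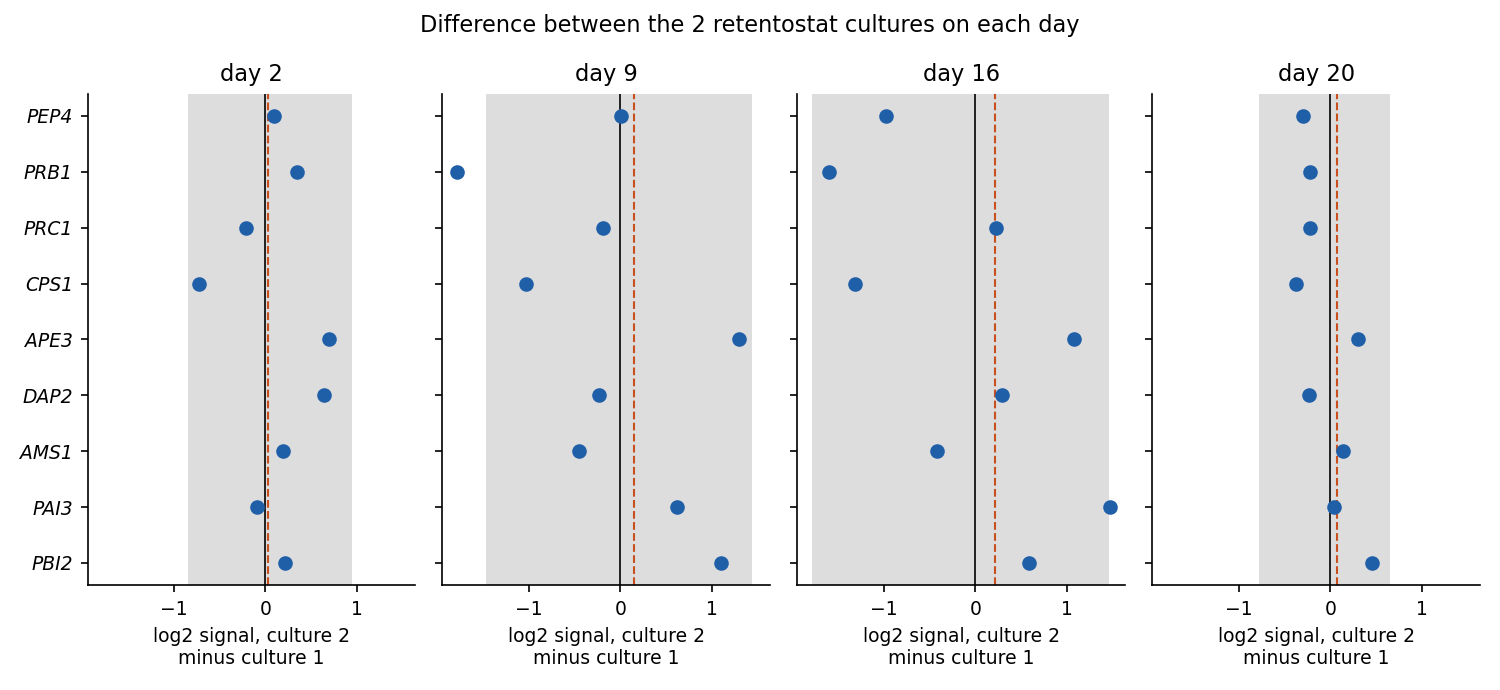
Log2 signal of culture 2 minus culture 1 for each gene on each retentostat day; the grey band holds the middle 90% of all genes tested and the dashed line is their median. PRB1 lies at -1.78 on day 9 and PAI3 at 1.47 on day 16, at or beyond the edge of the band, and all 9 genes lie within it on day 20.

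Some of the 9 genes varied together across the 11 arrays, which share cultures and the ACT1 ratio, so these correlations of log2 signal only describe the arrays. PEP4 and CPS1 had the highest (Pearson r = 0.87, and 0.52 over the 8 arrays of ordinary ratio). PRB1 ran opposite to the inhibitor of its product, PBI2 (r = -0.81 over 11 arrays and -0.85 over 8). Other pairs were about as strong, among them CPS1 and DAP2 (-0.75 and -0.88) and PEP4 and DAP2 (-0.79 and -0.76). PRB1 and PAI3 had -0.82 over 11 arrays and -0.35 over 8. Relations between genes could turn with the 3 arrays: 13 of the 36 pairs had the other sign without them. PEP4 and PRB1 had 0.36 over 11 arrays and -0.88 over 8, PRB1 and CPS1 0.56 and -0.72, and PEP4 and PAI3 -0.71 and 0.30. PEP4 and PBI2 had 0.01 and 0.88.

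Among 4836 other genes of mean signal 50 or more, the profile most like that of PEP4 over the 11 arrays belonged to RPS7B (YNL096C, a ribosomal protein, r = 0.97), followed by SUN4 (YNL066W, a cell-wall protein) and LEU2 (YCL018W, an enzyme of leucine synthesis), both at 0.95. For PRB1 they were CHC1 (YGL206C, clathrin heavy chain), OXA1 (YER154W, an insertase of the mitochondrial inner membrane) and PSP1 (YDR505C), at 0.95 each. For AMS1 they were TMT1 (YER175C, a methyltransferase) at 0.93, AKR1 (YDR264C, a palmitoyltransferase) at 0.91 and TIF4631 (YGR162W, a translation initiation factor) at 0.90. Over the 8 arrays of ordinary ratio these 9 correlations were between 0.87 and 0.91. The 8 are part of the 11 arrays by which these genes were picked, so these values are no separate check.

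A list of 17 other hydrolases and inhibitors, all measured, holds vacuolar enzymes but also the Golgi proteases KEX1, KEX2 and STE13 and the cytosolic LAP3. Genes of this list past the threshold were SGA1, PHO8 and LAP3. SGA1 (YIL099W), an intracellular glucoamylase that breaks down glycogen, rose from 60.5 ± 5.31 (SD, n = 3) to 189 on day 9, 304 on day 16 and 273 ± 87.5 (SD, n = 2) on day 20. Its log2 differences were 1.64, 2.31 and 2.14, with limma adjusted p-values of 0.00696, 0.00151 and 0.00270. All retentostat arrays of SGA1, from 103.2 up, lay above the chemostat arrays, a separation that was not counted over all genes. Of its calls, that of day 20 ended when the culture 2 array of that day was left out, with a log2 difference of 1.81.

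PHO8 (YDR481C), the vacuolar alkaline phosphatase that PEP4 activates, rose from 216 ± 41.3 (SD, n = 3) to 436, 480 and 419 on days 9, 16 and 20. The log2 differences were 1.03, 1.17 and 0.97 (limma adjusted p = 0.0190, 0.00970 and 0.0274). All 3 calls ended under quantile scaling (adjusted p = 0.0659, 0.0504 and 0.132), under median scaling (adjusted p = 0.0671, 0.0530 and 0.180) and without the 3 arrays (adjusted p = 0.0545, 0.0550 and 0.111). With fewer arrays the differences stayed about as large, at 1.12, 1.18 and 0.86 without the 3, whereas quantile scaling gave 0.75, 0.80 and 0.62 and median scaling 0.74, 0.78 and 0.53. The calls of days 9 and 20 also ended without chemostat array 1 or 3 (adjusted p from 0.0718 to 0.0980), without culture 1 on day 9 (adjusted p = 0.0609), with the compared groups alone on day 9 (adjusted p = 0.0508) and without either array on day 20.

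LAP3 (YNL239W), a cysteine aminopeptidase of the cytosol also known as bleomycin hydrolase, fell from 516 ± 59.4 (SD, n = 3) to 167, 155 and 241. Its log2 differences were -1.62, -1.73 and -1.10 (adjusted p = 0.00355, 0.00201 and 0.0172), and the day 20 call ended without the 3 arrays (adjusted p = 0.0830), without either day 20 array and without chemostat array 1 or 2 (adjusted p from 0.0594 to 0.191).

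The list as a whole was mixed, with 2 genes higher and 1 lower on each of days 9, 16 and 20 and none past the threshold on day 2 (limma, 4 at an unadjusted p under 0.05). These 3 genes are 17.6% of the list, near the 15.1%, 20.9% and 13.5% of all genes called on these days. The split by direction was 1 and 1 under quantile scaling on all 3 days, 1 higher and 2 lower under median scaling on day 16, and 1 higher and 2 lower without the 3 arrays on day 9. Its median log2 difference was 0.32, 0.26 and 0.45, against 0.25, 0.35 and 0.36 for all genes. TFS1, which encodes an inhibitor of carboxypeptidase Y, had -0.31, -0.36 and 0.01 on these days, and APE1, the aminopeptidase that AMS1 travels with, -0.76, -0.77 and -0.44. Neither passed.

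Of 24 genes that carry proteins to the vacuole, 2 were higher on day 9, 3 on day 16 and 1 on day 20, and none was lower on these days. These are 8.33%, 12.5% and 4.17% of the list, below the 15.1%, 20.9% and 13.5% of all genes called, most of which were also higher (75.7%, 79.3% and 77.7%). PEP7 (YDR323C, which tethers endosomal vesicles) was higher on days 9 and 16, by 0.98 and 0.96 on the log2 scale (limma adjusted p = 0.0263 and 0.0240). ATG11 (YPR049C, an adaptor for selective autophagy) was higher on days 9 and 20, by 0.88 and 0.80 (adjusted p = 0.0295 and 0.0452). VPS45 (YGL095C, a partner of membrane-fusion proteins) and PEP12 (YOR036W, the endosomal syntaxin) were higher on day 16, by 0.89 and 0.98 (adjusted p = 0.0205 and 0.0485). These calls depended on the scaling. Under quantile scaling none of the 24 passed on days 9, 16 or 20, and under median scaling 0 passed on days 9 and 16 and 2 were lower on day 20. Without the 3 arrays 2 were lower on day 9 and 1 was higher on day 16. All of the calls named here also ended when chemostat array 1 was left out (adjusted p from 0.0705 to 0.120), as they did without certain other single arrays (adjusted p from 0.0542 to 0.281).

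Of 15 listed vacuolar ATPase genes 14 were measured, and none passed on any day with limma. Of all genes, 15.1%, 20.9% and 13.5% passed on days 9, 16 and 20. Among the 14, 2 had an unadjusted p under 0.05 on days 9 and 16, and 1 on days 2 and 20. The vacuolar ATPase is a pump that acidifies the vacuole, which the vacuolar proteases need. Under median scaling 1 was lower on day 16. The medians of the 14 genes were -0.03, -0.09 and 0.17 (log2) on days 9, 16 and 20, against 0.25, 0.35 and 0.36 for all genes. Here too, no comparison with genes of like signal was made.

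**Figure D4:**
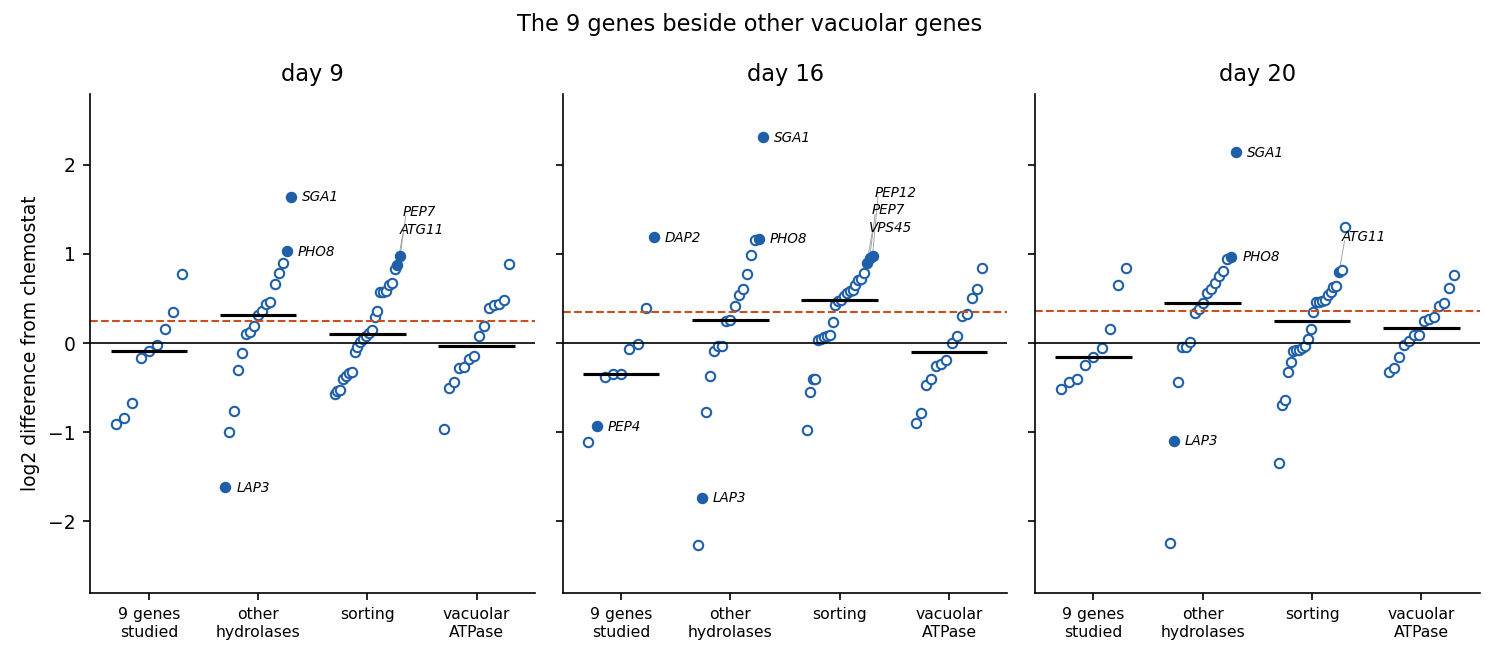
Log2 difference from the chemostat on days 9, 16 and 20 for the 9 genes studied, 17 other hydrolases and inhibitors, 24 sorting genes and 14 vacuolar ATPase genes; filled and named points passed an adjusted p of 0.05, bars are list medians and the dashed line is the median of all genes tested. SGA1, at 1.64 to 2.31, is the highest point of the hydrolases on each day and LAP3 the lowest filled one.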

How the data were processed

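Transcript levels were measured on 11 one-colour Affymetrix yeast arrays, 1 per sample. The authors deposited 1 linear intensity per probe set, computed with GCOS 1.2 per the submitters' processing notes. How background was removed and probes were summarised was not known here. The mean signal without the lowest and highest 2% of probe sets differed between arrays by at most 0.0133%.

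The arrays hold 9335 probe sets: 6504 with 1 gene, 328 with several, 2443 with none and 60 controls. The brightest probe set per gene was used (5656 genes), and dropping 79 genes that never exceeded a signal of 12 left 5577. Signals under 12 were set to 12 and taken to log2. Symbols were updated through an R64 gene table.

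Tests used limma 3.58.1 (lmFit, then eBayes, under R 4.3.3) on all 11 arrays with a mean for each group (two-sided, 6 residual and 3.52 prior degrees of freedom), with Benjamini-Hochberg adjustment over all 5577 genes and a threshold of 0.05. The fit was tested on simulated data with independent noise on each array. That simulation held no culture effect and no arrays of high ACT1 ratio. Alternatives were quantile and median scaling, a floor of 25, a mean signal of at least 50, the groups compared alone, and arrays left out singly or together. The main fit treats the 11 arrays as independent. The retentostat samples with the same replicate number, however, carry the same culture code in the labels and are repeated samples of 2 cultures. Their deviations from the day means correlated across genes at 0.227 to 0.690 between days, and the chemostat cultures have codes of their own. Culture was therefore also fitted as a random block (estimated correlation 0.247) and as a fixed term. No exact test on 2 against 3 arrays can reach the threshold.

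All 9 genes are named. Of the other vacuolar genes, those past the threshold on any day against the chemostat are named, at most 4 per list, with TFS1 and APE1 added after their values were seen. The genes most like PEP4, PRB1 and AMS1 are the 3 with the highest Pearson correlation each. The 9 genes and the lists were chosen with earlier results of these data known.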

Additional observations from a re-analysis of the deposited data

How the results depend on the processing

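With 2 or 3 arrays per group, the signals support only coarse statements. The number of the 9 genes past the threshold was 0 on day 2 and between days 2 and 20 under every alternative run. On day 9 it was 0, and 1 with a floor of 25, 3 without the 3 arrays of high ACT1 ratio, 3 with the replicate block as a fixed culture term, and 0 to 1 with 1 array left out. On day 16 it was 2, and 1 under quantile scaling, 1 under median scaling, 1 with a fit of the compared groups alone, 0 without the 3 arrays, and 0 to 4 with 1 array left out. On day 20 it was 0, and 1 with a floor of 25, 1 with the fixed culture term, 2 with only the groups compared, and 0 to 1 with 1 array left out. For the F test it was 1, and 0 under quantile scaling, 0 under median scaling, 0 with genes of mean signal under 50 left out, 0 without the 3 arrays, 2 with the fixed culture term, and 0 to 2 with 1 array left out. Culture as a random block changed none of these counts. On day 16 the count of 4 came without the culture 1 array of that day, when CPS1 (-1.76, limma adjusted p = 0.0212) and PAI3 (1.13, adjusted p = 0.0232) passed as well, and the count of 0 without its culture 2 array.

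All genes past the threshold numbered 842, 1167 and 753 on days 9, 16 and 20, and 581, 680 and 425 under quantile scaling, 641, 762 and 536 under median scaling, 880, 708 and 301 without the 3 arrays, 618, 758 and 1942 with only the groups compared and 1465, 2005 and 1508 with the fixed culture term. For the F test the counts were 636, and 175 without the 3 arrays and 1499 with the culture term. Of 855 recomputed log2 differences of the 9 genes, 783 kept their sign and their side of the threshold. Of the rest, 20 came to pass, 14 no longer passed and 38 changed sign without passing. In many of the 855 the sign could not change, so the 783 say little about how stable the signs were. The log2 difference stays the same when an array outside the groups compared is left out. It also stays the same with culture as a random block or fixed term and with only the groups compared. For the 9 genes the raised floor and the removal of dim genes leave it unchanged too. Where no cause is visible in how an alternative is built, the cause was not tested.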
